A study of Mus musculus with 4 samples.

Results

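The nuclear-coded genes of oxidative phosphorylation were taken from the deposited expression table by name: gene names that begin with Nduf followed by a, b, c, s or v and a number, with Uqcr, with Cox4 to Cox8 or with Atp5, together with Sdha, Sdhb, Sdhc and Sdhd. Only protein-coding rows whose name does not carry -ps were kept. This gave 87 of the 55414 genes of the table, or of its 21884 protein-coding genes: 39 of complex I, 4 of complex II, 8 of complex III, 18 of complex IV and 18 of complex V. The table uses the older symbols of the ATP synthase genes (Atp5b for Atp5f1b, Atp5g1 for Atp5mc1 and so on). Ndufab1 and Cyc1, which encode further subunits, fall outside the name rule and are given separately.

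The tissue was cerebral cortex, taken at postnatal day 1 from C57BL/6J mice. There were 4 libraries: 2 labelled Control (Control 2 and Control 3, genotype Mkk7flox/flox) and 2 labelled cKO (cKO 2 and cKO 3, genotype Mkk7flox/flox Emx1-Cre), so both groups carry the floxed Mkk7 alleles. Emx1-Cre recombines in the dorsal telencephalic lineage, that is, in the excitatory neurons and glia derived from it and not in every cell of the cortex. The labels give no other allele or treatment, and they do not say whether a library came from 1 animal or several.

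Oxidative phosphorylation takes place in the inner mitochondrial membrane. Complexes I (NADH dehydrogenase) and II (succinate dehydrogenase) pass electrons to ubiquinone, complex III passes them to cytochrome c, and complex IV (cytochrome c oxidase) to oxygen; complexes I, III and IV pump protons, and complex V (ATP synthase) uses the proton gradient to make ATP. A few catalytic subunits of complexes I, III, IV and V are coded by the mitochondrial genome, while complex II and most other subunits are coded in the nucleus, many of them as small proteins with short messenger RNAs. Neurons of the developing cortex shift from glycolysis towards oxidative phosphorylation as they differentiate.

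Their promoters were examined for letters that transcription factors of mitochondrial genes are known to bind. RefSeq promoters (GRCm38.p6, 250 bases before to 50 after a start site) were found for 70 of the genes, with 75 start sites. On either strand, GCGCATGCG, a core of the site of NRF1 (nuclear respiratory factor 1), stood in 8 of the 75 promoters (10.7%), against 1.75% of all 32851 promoters of the same length and 3.23% of the promoters of the protein-coding genes tested here. AAGATGGC, the core of the YY1 site, stood in 10 (13.3%, against 2.75% and 3.91%). CCGGAAG, bound by GABP and other ETS factors, stood in 17 (22.7%, against 8.86% and 15.4%). TCAAGGTCA, the site of the oestrogen-related receptors (ERR), stood in 2 (2.67%, against 0.423% and 0.274%). GGGCGG, bound by SP1, stood in 30, against 35.7% and 60.9%. Matches can overlap: CCGGAAG and AAGATGGC can share their AAG, and GCGCATGCG reads nearly the same on both strands, so a palindrome can match on both. Most YY1 matches lay in 1 stretch: in 8 of the 75 promoters (10.7%) the letters began 20 to 40 bases after the start on the gene strand, against 0.496% of all promoters and 1.04% of those of the protein-coding genes tested. That stretch was not planned and spans the members' own matches, so its shares are no independent comparison. A match is a description of the letters and no evidence of binding. The promoters below, 1 per complex, were those with the most different motifs among the genes named here. They show where the motifs lie near the start. Each is written 5′ to 3′ on the gene strand, on GRCm38.p6, with matches of any of the 5 motifs in capitals:
Ndufa3 (chr7:3617310-3617402, + strand, from 63 bases before to 30 after the start): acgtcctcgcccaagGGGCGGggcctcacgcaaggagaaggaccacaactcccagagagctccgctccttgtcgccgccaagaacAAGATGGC
Sdhd (chr9:50603820-50603910, - strand, from 61 before to 30 after): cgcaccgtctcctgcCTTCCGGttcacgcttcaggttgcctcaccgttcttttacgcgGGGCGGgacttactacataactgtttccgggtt
Uqcr11 (chr10:80406802-80406902, - strand, from 81 before to 20 after): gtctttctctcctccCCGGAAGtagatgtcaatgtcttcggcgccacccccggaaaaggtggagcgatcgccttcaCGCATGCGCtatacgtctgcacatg
Cox6a1 (chr5:115348939-115349135, - strand, from 177 before to 20 after): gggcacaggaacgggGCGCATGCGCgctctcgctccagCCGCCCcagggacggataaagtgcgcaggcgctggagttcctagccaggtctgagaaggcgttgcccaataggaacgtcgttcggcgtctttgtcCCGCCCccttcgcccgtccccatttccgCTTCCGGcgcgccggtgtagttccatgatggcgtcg
Atp5g2 (chr15:102671028-102671104, - strand, from 57 before to 20 after): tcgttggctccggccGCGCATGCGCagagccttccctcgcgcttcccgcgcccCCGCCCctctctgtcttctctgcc
The ERR letters of Sdhd lie further into the transcript and are not shown.

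Across the series, library totals were 19429923 and 19842204 estimated counts in Control 2 and Control 3 and 19421491 and 22511247 in cKO 2 and cKO 3. Map2k7, the gene of the floxed kinase MKK7, was at 38.4 and 30.4 CPM (counts scaled to library size) in the Control libraries and at 47.9 and 48.2 CPM in the cKO libraries. It was thus not lower in the cKO libraries, but a sum over the whole gene cannot check a deletion of part of it, and each direction below rests on the labels alone. Xist had 1145, 1004, 1218 and 0 counts and the Y-linked Ddx3y 0, 0, 0 and 985 in Control 2, Control 3, cKO 2 and cKO 3, so cKO 3 is the only male library and sex cannot be told apart from that library. All 10 markers of cortical excitatory neurons were present, with a summed level of 1460 and 1666 CPM in the Control and 1877 and 1854 CPM in the cKO libraries. The 10 markers of striatal neurons summed to 411 and 294 CPM in the Control and 141 and 137 CPM in the cKO libraries.

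Together the genes of oxidative phosphorylation took 1.87% and 1.84% of all counts in Control 2 and Control 3, 1.88% in cKO 2 and 1.55% in cKO 3. Per length, in the authors' TPM (transcript level scaled for gene length and library size), they summed to 54341 and 51344 TPM in the Control libraries and to 51753 and 43938 TPM in the cKO libraries. On both scales the cKO 3 library was the lowest, and cKO 2 lay on the side of the Control libraries. Of the 87 genes, 82 passed the filter on low counts. The 5 that did not were Cox7b2 (1, 2, 0 and 3 counts in Control 2, Control 3, cKO 2 and cKO 3), Cox8b (1 count, in cKO 3), and Cox8c, Ndufb11b and a further row named Atp5o, each with 0 counts in every library.

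No gene of the group passed the test between genotypes. Over all 17017 genes tested, 0.047% were called at an adjusted p below 0.05 (edgeR's quasi-likelihood test with Benjamini-Hochberg adjustment; 0.0411% lower and 0.00588% higher), and of the 82 members none was, with adjusted p-values from 0.391 to 0.994. DESeq2 called none of the 82 either, with a smallest adjusted p of 0.170. At an unadjusted p below 0.05, 2 members were lower and none was higher, where 5.66% of all genes were lower and 5.28% higher. Yet most estimates lay on the same side of 0: 74 of 82 had a negative log2 fold change, against 50.2% of all genes tested and 52.8% of the protein-coding genes, with a median of -0.11 against -0.00 for all genes. In 9 members both cKO libraries lay below both Control libraries, as they did in 22.2% of all genes, and in 1 member both lay above, against 22.0% of all genes. The members' shares were thus below those of the background.

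**Figure D1:**
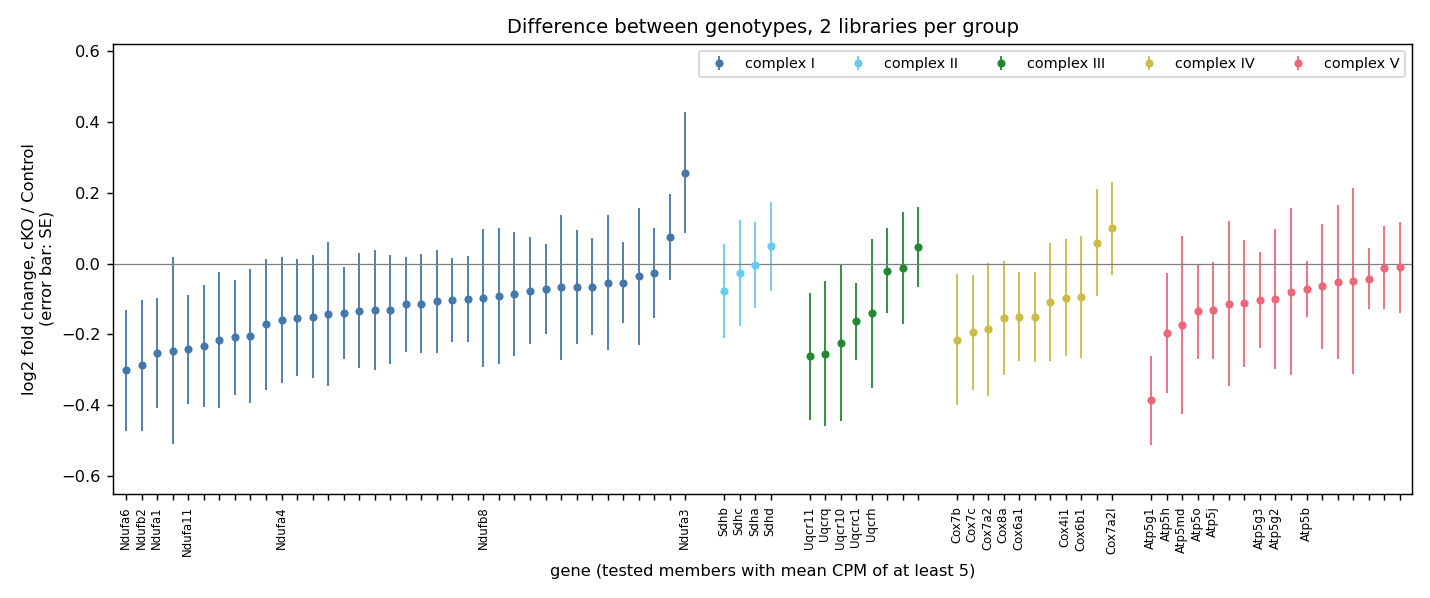
Log2 fold change (cKO over Control, n = 2 libraries per group) of the 77 tested subunit genes with a mean of at least 5 CPM, ordered within each complex and labelled where the gene was named by rule; bars are the standard error. Most points lie slightly below 0, and none passed the test over all genes.

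The negative side came from 1 library. The cKO 3 library had the lowest level of the 4 in 73 of 82 genes, against 26.4% of all genes tested. By contrast, cKO 2 was above both Control libraries in 47 genes, between them in 23 and below both in 12. The places of cKO 2 were not counted over all genes. Among the 77 genes with a mean of at least 5 CPM, the level in cKO 3 was between 61.2% (Ndufb4) and 107% (Sdha) of the Control mean with a median of 77.8%, and the level in cKO 2 between 83.0% (Atp5g1) and 137% (Ndufa3) with a median of 105%. Relative to each gene's average over the libraries, the median member stood on the log2 scale at 0.08, 0.05, 0.12 and -0.29 in Control 2, Control 3, cKO 2 and cKO 3 (its deviation). In 74 of 82 genes the gap between both cKO libraries was larger than the fold change between the genotypes. This was not counted over all genes, and a gap between single libraries varies more than a difference between group means. Without cKO 3, 20 of 82 genes had a negative fold change and the median was 0.07. Without cKO 2, 78 of 82 were negative with a median of -0.36, where the median of all genes was -0.01. That fit leaves 1 cKO library, so only its effect size is given.

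**Figure D2:**
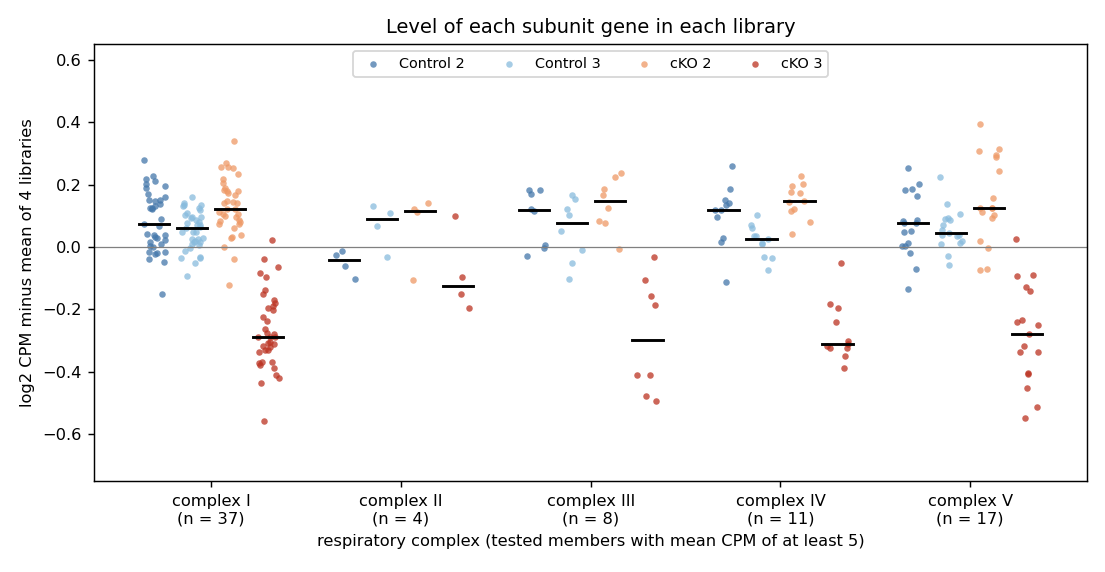
Log2 CPM of each subunit gene minus its mean over the 4 libraries, for the 77 tested genes with a mean of at least 5 CPM, by complex; short black lines are medians. The cKO 3 points lie below those of the other 3 libraries in complexes I, III, IV and V and overlap with them in complex II.

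Complex I, the largest of the complexes, had 35 of 38 tested genes with a negative log2 fold change (median -0.11). Its level per length ran from 9.95 TPM (Ndufa4l2) to 1566 TPM (Ndufb8), with a median of 419 TPM. The 16 genes of the matrix arm, which oxidizes NADH, and the 20 tested genes of the membrane arm had medians of -0.11 and -0.12, and the 7 core subunits one of -0.10. The 4 genes with the smallest p were accessory subunits. Ndufa6, a subunit of the matrix arm, stood at 83.1 and 69.7 CPM in the Control and 68.5 and 55.5 CPM in the cKO libraries (log2 fold change -0.30, SE 0.17; adjusted p = 0.561 with edgeR). Ndufa1, an X-linked subunit of the membrane arm, stood at 106 and 94.6 CPM in the Control and 93.5 and 74.9 CPM in the cKO libraries (-0.25, SE 0.16). In both genes the groups did not overlap, by a narrow margin between Control 3 and cKO 2.

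Ndufa11, a membrane-arm subunit, had 174 and 156 CPM in the Control libraries and 158 and 122 CPM in cKO 2 and cKO 3 (log2 fold change -0.24, SE 0.15). Ndufb2, another subunit of that arm, had 151 and 144 CPM in the Control libraries and 144 and 97.8 CPM in cKO 2 and cKO 3 (-0.29, SE 0.19). In both, cKO 2 was level with Control 3 and cKO 3 was far below. Ndufb8, the most abundant member of the complex per length, was highest in cKO 2: 394 and 410 CPM in the Control libraries, 458 CPM in cKO 2 and 293 CPM in cKO 3 (-0.10, SE 0.19). Ndufa3 had the largest positive fold change among genes with at least 5 CPM, at 73.7 and 76.7 CPM in the Control and 103 and 76.4 CPM in the cKO libraries (0.26, SE 0.17), and there it was cKO 2 alone that differed. Ndufa4, named as a complex I gene although its protein is now known as a subunit of cytochrome c oxidase, stood at 308, 296, 321 and 219 CPM in Control 2, Control 3, cKO 2 and cKO 3.

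The core subunits carry the flavin and the iron-sulphur clusters of complex I. Of these, Ndufs1, named after its values were seen, has a long transcript for this group. It was at 111 and 114 CPM in the Control and 105 and 104 CPM in the cKO libraries. It did not show the drop in cKO 3 that marked most of the small subunits. Of the 7 core subunits, 6 were lowest in cKO 3, and the median deviation of the 7 there was -0.18. Ndufs8, also named after its values were seen, was at 143 and 148 CPM in the Control and 145 and 107 CPM in the cKO libraries.

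Complex II is the only complex coded entirely in the nucleus, and it also acts in the citric acid cycle. It was the complex closest to 0, with a median log2 fold change of -0.02 over its 4 genes and edgeR adjusted p-values from 0.870 to 0.994. Sdha, the flavoprotein subunit, was at 263 and 287 CPM in the Control libraries and 254 and 293 CPM in cKO 2 and cKO 3 (log2 fold change -0.00, SE 0.12), and cKO 3 was its highest library. Sdhb, the iron-sulphur subunit and the most abundant per length (545 TPM on average), was at 368, 404, 404 and 327 CPM in Control 2, Control 3, cKO 2 and cKO 3 (-0.08, SE 0.13). The membrane anchors Sdhc (111, 131, 130 and 108 CPM) and Sdhd (207, 204, 230 and 195 CPM, in the same order) had values of -0.03 (SE 0.15) and 0.05 (SE 0.13). For these anchors the groups overlapped.

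In complex III, 7 of 8 genes were negative with a median of -0.15. All but 1 of its genes were lowest in cKO 3, by different margins. Uqcr11, the most abundant per length (1221 TPM), had 202 and 191 CPM in the Control libraries, 194 CPM in cKO 2 and 134 CPM in cKO 3 (log2 fold change -0.26, SE 0.18). Uqcr10, also a small subunit, had 144 and 148 CPM in the Control libraries, 156 CPM in cKO 2 and 94.5 CPM in cKO 3 (-0.22, SE 0.22), and Uqcrq followed with 211, 204, 213 and 135 CPM (-0.25, SE 0.20). The hinge protein gene Uqcrh had 132, 116, 137 and 87.7 CPM. Uqcrb, a small subunit gene named after its values were seen, had 130, 111, 134 and 105 CPM, so that Control 3 was close to cKO 3 (-0.01, SE 0.16). Uqcrc1, a large core subunit, differed less: 568 and 640 CPM in the Control and 568 and 512 CPM in the cKO libraries (-0.16, SE 0.11), with a gap of under 1 CPM between Control 2 and cKO 2. Uqcrfs1, which encodes the Rieske iron-sulphur protein and was named after its values were seen, was at 210, 202, 220 and 205 CPM.

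Complex IV had 12 of 15 tested genes on the negative side (median -0.15). Its nuclear subunits surround a catalytic core coded by the mitochondrial genome. Cox6a1 was the most abundant (2130 TPM on average) and stood at 519, 506, 513 and 411 CPM in Control 2, Control 3, cKO 2 and cKO 3 (log2 fold change -0.15, SE 0.13). Cox4i1, the ubiquitous form of subunit 4, stood at 626, 664, 711 and 494 CPM (-0.10, SE 0.16), Cox6b1 at 402, 353, 415 and 292 CPM, and Cox8a at 298, 278, 300 and 218 CPM. Cox7a2 (244, 218, 242 and 164 CPM), Cox7c (136, 130, 134 and 98.7 CPM) and the X-linked Cox7b (156, 127, 142 and 102 CPM) showed the same order of libraries at the bottom, with cKO 3 last. Cox7a2l, which encodes a factor that joins complexes III and IV and is not a standard subunit, was at 111, 121, 133 and 116 CPM (0.10, SE 0.13), with cKO 3 between the Control libraries.

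All 17 tested genes of complex V had a negative fold change (median -0.10), from -0.01 to -0.39. Atp5b, the catalytic beta subunit of F1 and the most abundant of all members (2393 TPM on average), was level across the libraries at 1994, 2148, 2047 and 1893 CPM in Control 2, Control 3, cKO 2 and cKO 3 (log2 fold change -0.07, SE 0.08; adjusted p = 0.777 with edgeR). The small accessory subunit gene Atp5md, second within complex V per length at 1579 TPM, was at 174 and 163 CPM in the Control libraries, 193 CPM in cKO 2 and 106 CPM in cKO 3 (-0.17, SE 0.25). The 4 genes of the peripheral stalk, which holds the catalytic head still, were all lowest in cKO 3: Atp5h was at 247, 216, 234 and 170 CPM, Atp5j at 236, 230, 237 and 189 CPM, and Atp5o at 401, 413, 416 and 326 CPM. Atp5pb, the remaining stalk gene, was named after its values were seen and had the smallest difference, with 406, 409, 438 and 371 CPM (-0.01, SE 0.12).

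Of all members, Atp5g1 had the smallest p, and with Cox6a2 it was the only member under 0.05 before adjustment. It is 1 of 3 genes for the c subunit of the proton-driven ring; their precursors differ in the targeting peptide and give the same mature protein. Atp5g1 (ENSMUSG00000006057.16, chr11:95959678-95966496, GRCm39, - strand) was at 331 and 305 CPM in the Control and 264 and 223 CPM in the cKO libraries, so both cKO libraries were lower (log2 fold change -0.39, SE 0.13; adjusted p = 0.391 with edgeR). It was still lower without cKO 3 (-0.27) and without any other library (-0.33 to -0.51), but it passed the test over all genes in none of these fits. The other c-ring genes, Atp5g3 (456, 443, 472 and 366 CPM) and Atp5g2 (31.9, 41.0, 35.0 and 33.0 CPM), had overlapping groups. Per length, Atp5g1 amounted to 89.2% and 82.1% of Atp5g3 in the Control libraries and 69.3% and 73.5% in the cKO libraries.

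Several subunits have a second gene with a tissue-restricted isoform, and in newborn cortex these were rare next to the main form. In TPM within each library, Cox4i2, the form found in lung and other oxygen-sensing cells, amounted to 0.257% to 0.450% of Cox4i1. Cox6b2, the testis form, amounted to 0.745% to 1.05% of Cox6b1, and Ndufa4l2, which is induced by hypoxia, to 0.683% to 1.00% of Ndufa4. Cox4i2 stood at 54, 45, 34 and 31 counts, Cox6b2 at 51, 55, 42 and 40 and Ndufa4l2 at 95, 80, 107 and 95 in Control 2, Control 3, cKO 2 and cKO 3. Their fold changes were -0.68 (SE 0.57), -0.44 (SE 0.53) and 0.14 (SE 0.40) on the log2 scale.

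The heart and muscle isoforms Cox6a2 and Cox7a1 had the largest estimates of the group, in opposite directions and from few counts. Cox6a2 (ENSMUSG00000030785.9, chr7:127804607-127805559, GRCm39, - strand) had 46 and 39 counts in the Control and 14 and 10 in the cKO libraries, and both cKO libraries were lower (log2 fold change -1.87, SE 0.72; adjusted p = 0.428 with edgeR). Leaving out any 1 library gave values between -1.54 and -2.29, none of which passed over all genes. Cox7a1 (ENSMUSG00000074218.4, chr7:29883569-29885503, GRCm39, + strand) had 12 and 6 counts in the Control and 21 and 28 in the cKO libraries (1.34, SE 0.84, adjusted p = 0.602), or 0.551% and 0.308% of Cox7a2 per length in the Control and 0.989% and 1.56% in the cKO libraries. Cox6a2 is also known from parvalbumin interneurons. In the same libraries 8 interneuron markers summed to 923 and 863 CPM in the Control and 777 and 658 CPM in the cKO libraries. All 8 had negative fold changes, from -0.03 (Npy) and -0.18 (Lhx6) to -1.03 (Slc32a1). The 10 striatal markers also all had negative fold changes, with sums of 411 and 294 CPM in the Control and 141 and 137 CPM in the cKO libraries. Of 10 striated muscle markers 5 were tested, with sums of 20.4 and 17 CPM in the Control and 14.3 and 9.37 CPM in the cKO libraries. Most of each sum was Acta1 (17.6, 14.2, 13.5 and 5.65 CPM in the same order). Of the 5, 4 had negative fold changes and Myh3 a positive one (1.67, SE 1.39). Myoglobin (Mb) had 0 counts in every library. The part of these cell types in the values of Cox6a2 was not tested. In bulk tissue fewer cells of a type cannot be told apart from less RNA per cell.

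**Figure D3:**
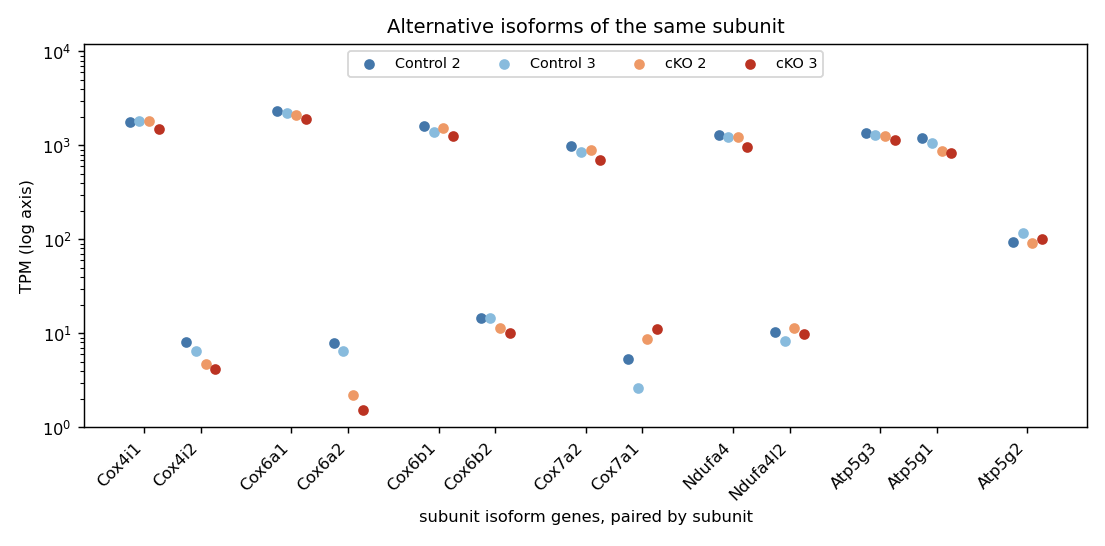
TPM (log axis) of the main and alternative isoform genes of the same subunit in each library; each point is 1 library. Alternative isoforms of complexes I and IV lie far below the main form, Cox6a2 is lower and Cox7a1 higher in both cKO libraries, and the points of Atp5g1 fall below those of Atp5g3.

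The level in cKO 3 differed with the apparent length of the transcript. Apparent transcript length was read from the ratio of counts to TPM, calibrated on genes with 1 transcript. The median over the 82 members was 769 bases, against 2636 bases for all protein-coding genes tested. In the 60 members under 1000 bases the median log2 deviation was 0.13, 0.04, 0.15 and -0.32 in Control 2, Control 3, cKO 2 and cKO 3, and 56 of them were lowest in cKO 3. In the 19 members of 1000 to 2000 bases it was -0.02, 0.09, 0.11 and -0.15. In the 3 longest, Ndufs1, Sdha and Atp5a1, it was 0.00, 0.07, -0.07 and 0.03. Atp5a1 encodes the alpha subunit of F1 and was named after its values were seen. It stood at 936 and 958 CPM in the Control and 888 and 950 CPM in the cKO libraries. Across the 82 genes, Spearman's rho between length and deviation was -0.58 in Control 2, 0.26 in Control 3, -0.37 in cKO 2 and 0.51 in cKO 3, a description over genes that share these libraries. The sign thus differed between libraries of 1 group, and among other protein-coding genes rho was 0.01, -0.14, -0.16 and 0.29.

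Many other genes with short transcripts, but not all, also had low levels in cKO 3. The 13 genes of the mitochondrial genome, with a median apparent length of 858 bases, had a median deviation of 0.15 there, and 0 were lowest in cKO 3. Of the 38 genes under 600 bases that are not members, 50% were lowest in cKO 3, with a median deviation of -0.23. Among protein-coding genes that are not members, the 766 under 1000 bases had median deviations of 0.06, 0.05, 0.14 and -0.23 in Control 2, Control 3, cKO 2 and cKO 3, and 65.5% of them were lowest in cKO 3, against 27.0% of all protein-coding genes. By the deposited gene length the trend did not hold throughout. The members' median deviation in cKO 3 was -0.31 under 1000 bases (41 genes), -0.19 from 1000 to 2000 (24 genes), -0.15 from 2000 to 4000 (13 genes) and -0.43 above (4 genes). Those 4, Ndufb2, Ndufb7, Atp5g1 and Atp5l, were named after their values were seen; their apparent lengths were 651 to 750 bases, and all 4 were lowest in cKO 3. The 506 other protein-coding genes with a deposited length under 1000 bases had a median of -0.24 in cKO 3. Cytosolic ribosomal protein genes, also short, had a median of -0.36 in cKO 3 (69 of 77 tested genes negative between genotypes, median fold change -0.17). The part of transcript length in the members' values was not tested. Hemoglobin and other red cell markers, 7 of 8 tested, also differed between both cKO libraries: they summed to 3092 and 3413 CPM in the Control libraries, 4912 CPM in cKO 2 and 1875 CPM in cKO 3. Choroid plexus and ependyma markers, 7 of 8 tested, did not follow that order, at 813, 25.0, 374 and 20.9 CPM in Control 2, Control 3, cKO 2 and cKO 3.

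**Figure D4:**
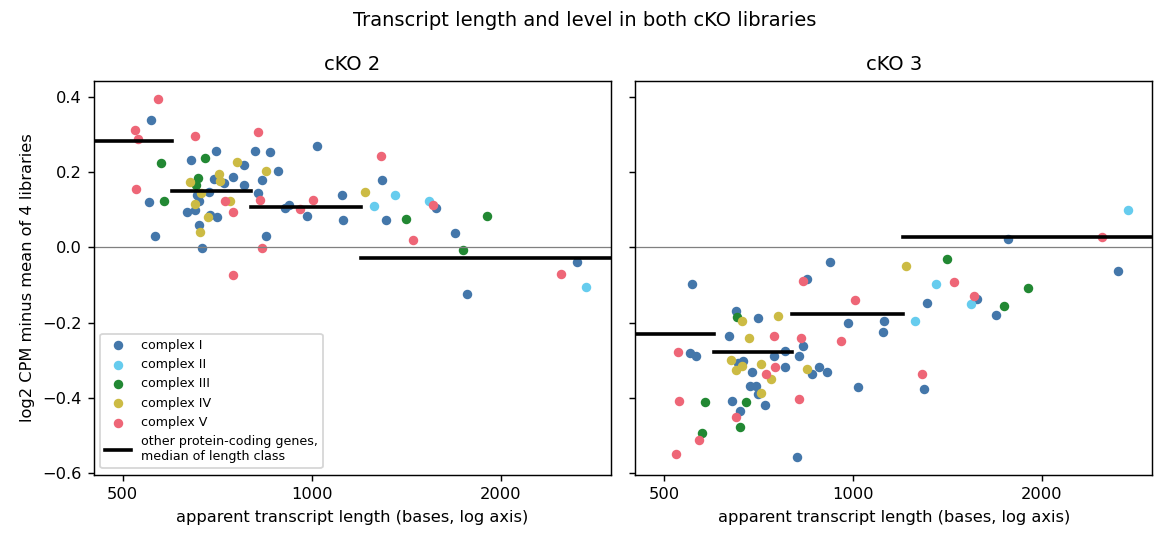
Apparent transcript length (bases, log axis) against log2 CPM minus the mean of the 4 libraries, for the 77 tested subunit genes with a mean of at least 5 CPM in cKO 2 (left) and cKO 3 (right); black lines are medians of other protein-coding genes in 4 length classes. Short transcripts of subunit genes lie below 0 in cKO 3 and mostly above 0 in cKO 2, and the medians of other genes with short transcripts lie on the same sides.

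The remaining genes of the respiratory chain and its upkeep were read from lists. Ndufab1, the acyl carrier protein of complex I with a short transcript (804 bases), was at 103, 97.5, 107 and 79.4 CPM in Control 2, Control 3, cKO 2 and cKO 3 (log2 fold change -0.10, SE 0.17). Cyc1, the cytochrome c1 of complex III (1424 bases), was at 287, 305, 309 and 311 CPM (0.07, SE 0.11), and Cycs, cytochrome c itself (2882 bases), at 176, 159, 175 and 162 CPM (0.01, SE 0.12). The longer pair did not share the low value in cKO 3.

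Of 44 tested assembly factors, 27 had a negative fold change (median -0.15) and none passed the test. Atpaf1 and Atpaf2, which assemble the F1 part of ATP synthase, had estimates of opposite sign, and the difference between them was not tested. Atpaf1 was at 22.2 and 24.7 CPM in the Control and 16.5 and 16 CPM in the cKO libraries (log2 fold change -0.53, SE 0.21; adjusted p = 0.439 with edgeR), and Atpaf2 at 44.9 and 45.5 against 61.6 and 55.6 CPM (0.37, SE 0.15, adjusted p = 0.450). Uqcc3, an assembly factor of complex III, was at 33.8 and 33.4 CPM in the Control and 26.0 and 21.7 CPM in the cKO libraries (-0.50, SE 0.20). In each of these 3 genes, picked for the smallest p of the list, the groups did not overlap and the adjusted p missed the threshold. Among the 44, both cKO libraries lay below both Control libraries in 17 and above both in 5. The shares over all genes tested were 22.2% and 22.0%.

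Enzymes of the citric acid cycle and the pyruvate dehydrogenase complex, which feed the chain, had 13 of 18 negative values with a median of -0.08. The smallest p-values were those of Pdhx (68.6 and 77.2 CPM in the Control, 58.1 and 56.6 CPM in the cKO libraries), Fh1 (89.0 and 89.0 against 67.6 and 75.4 CPM) and Idh2 (126 and 151 against 124 and 94.6 CPM), with edgeR adjusted p-values of 0.454, 0.457 and 0.510. For these the order of both cKO libraries varied. Among 19 regulators of mitochondrial biogenesis, 12 were negative (median -0.11). Polrmt, the RNA polymerase of mitochondria, was at 47.0 and 51.4 CPM in the Control and 32.9 and 25.8 CPM in the cKO libraries (-0.74, SE 0.19, edgeR adjusted p = 0.316). Lrpprc, which stabilizes mitochondrial messenger RNAs, was at 64.7 and 72.8 CPM in the Control and 54.9 and 50.7 CPM in the cKO libraries (-0.38, SE 0.15), and the coactivator gene Ppargc1b at 4.89 and 3.60 against 2.11 and 1.93 CPM (-1.07, SE 0.47).

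The subunits coded by the mitochondrial genome had estimates on the other side of 0. None of the 13 was called, all 13 had a positive fold change (median 0.17), and their median deviation was 0.15 in cKO 3, where that of the nuclear genes was -0.29. The 3 with the smallest p were mt-Atp8 (66.6 and 70.8 CPM in the Control, 104 and 128 CPM in the cKO libraries), mt-Atp6 (1054 and 1024 against 1201 and 1363 CPM) and mt-Nd6 (65.9 and 62.5 against 82.9 and 86.3 CPM), with edgeR adjusted p-values of 0.258, 0.363 and 0.399. The genes of mitochondrial ribosomal proteins, coded in the nucleus, lay on the side of the nuclear subunits, with 62 of 78 negative, a median fold change of -0.10 and a median deviation of -0.21 in cKO 3.

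**Figure D5:**
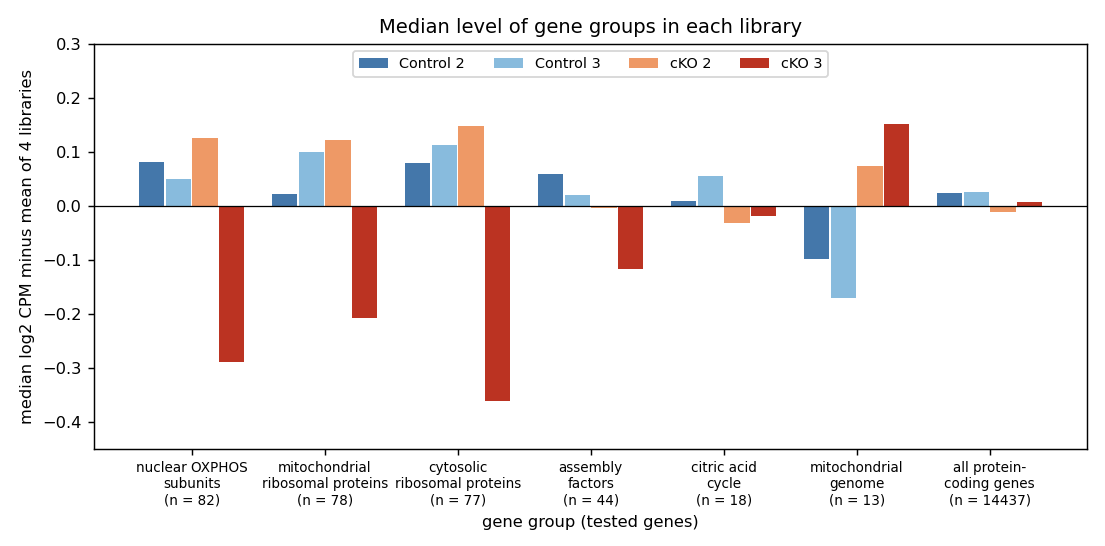
Median log2 CPM minus the mean of the 4 libraries for groups of tested genes in each library. Nuclear subunits and both kinds of ribosomal protein genes are low in cKO 3 alone, the genes of the mitochondrial genome are high in both cKO libraries, and all protein-coding genes lie near 0.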

How the data were processed

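Libraries were made with the SMART-Seq v4 Ultra Low Input kit from DNase-treated total RNA, per the labels' protocols. The kit is poly(A)-primed and unstranded. Per gene, the deposited table gives estimated counts (not whole in 12.0% to 13.5% of its rows, and in 35 to 40 of the 87 members) and the authors' TPM, with 1 deposited gene length per gene. DRAGEN and GRCm39 are named in the submitters' processing notes; version, settings and annotation: not given in the sources used here. Subunit genes with near-identical processed copies can share reads with them, so their values are uncertain.

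Counts were rounded to whole numbers. Genes passing edgeR's default filter (17017) were scaled with TMM factors (1.01, 0.994, 0.979 and 1.02 for Control 2, Control 3, cKO 2 and cKO 3) and tested with edgeR 4.0.16 (R 4.3.3), quasi-likelihood, genotype as the only term, Benjamini-Hochberg adjustment over all genes and a threshold of 0.05. SE was taken as |log2 fold change| over the root of the F statistic. Deviations are log2 CPM with a prior count of 2. Nothing in the labels says that libraries are separate animals. By their Xist and Ddx3y counts, cKO 2 and cKO 3 differed in sex and so came from different animals. The p-values reflect the spread of these 4 libraries, which may be technical between the Control libraries. On counts simulated for the same comparison and 17017 genes, the procedure called 54 of 100 genes with a simulated 2-fold change. With a 4-fold change it called 95 of 100, and there were 10 false calls. Changed genes were drawn only from those with a mean of at least 5 CPM. No shift shared by many genes of 1 library was simulated. Apparent length was calibrated in each library on 761 to 819 protein-coding genes with 1 transcript (Pearson's r from 0.998 to 0.999 across genes) and added after seeing the data.

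The members and lists were chosen with earlier results of these data known. Of 274 listed genes, 257 matched by symbol, 14 by RefSeq synonym, 2 by a hand-written alias and 1 not at all. Genes were named by rule: in each complex the 4 members with the smallest p and the 2 with the highest TPM, the alternative isoforms and c-ring genes, the largest fold change in each direction at a mean of at least 5 CPM, members that failed the filter, and the 3 smallest p-values of 4 related lists. Protein sequences were not used here. Alternatives were RLE and upper-quartile scaling, 2 other filters, DESeq2 1.42.0, limma-voom (limma 3.58.1), protein-coding genes only, a replicate block and leaving out each library. Those added later left out chromosomes X and Y, used a threshold of 0.1 or counted only members of at least 5 CPM.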

Additional observations from a re-analysis of the deposited data

Results flagged for a closer look

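The name rule left out 17 rows that are copies of the subunit genes (16 annotated as processed pseudogenes of some kind, and Cox5b-ps, annotated as protein-coding). They held 2111, 1939, 2604 and 2126 counts in Control 2, Control 3, cKO 2 and cKO 3, or between 0.531% and 0.714% of the counts of the subunit genes. Of the 10 that passed the filter on low counts, 7 were above both Control libraries in both cKO libraries. The share was 65.6% over all 1025 processed pseudogenes tested, so the copies were close to that background. None was called over all genes.

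Cox7c-ps1 had 85.1 and 56.2 estimated counts in the Control and 167 and 218 in the cKO libraries (log2 fold change 1.35, SE 0.37, edgeR adjusted p = 0.333), while its parent Cox7c was lowest in cKO 3. The copy amounted to 3.18% and 2.2% of the parent's counts in the Control libraries and 6.57% and 9.66% in the cKO libraries. Atp5pb-ps had 120 and 124 counts in the Control and 247 and 270 in the cKO libraries (1.00, SE 0.28, adjusted p = 0.344), against a fold change of -0.01 for Atp5pb. Ndufs5-ps had 76.4 and 45.4 against 157 and 124 counts (1.15, SE 0.45), Cox5b-ps 62.7 and 40.8 against 118 and 102 (1.01, SE 0.46), and Cox6c2 57.5 and 43.1 against 101 and 96.8 (0.91, SE 0.44). The 2 copies of Atp5l had under 25 counts in each library, with values of 1.52 (Atp5l-ps1, SE 0.92) and 1.07 (Atp5l2-ps, SE 0.90). The copies with the most counts did not share this: Ndufb4c, with more counts than its parent Ndufb4 in every library, had a value of -0.19 and Ndufa12-ps one of -0.15.

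The same direction was seen in processed pseudogenes as a whole. Of 1025 tested, 87.6% had a positive fold change with a median of 0.59, and in 65.6% both cKO libraries were above both Control libraries, where 22.0% of all genes tested were. The cause was not tested.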

How the results depend on the processing

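Each library was left out in turn, and only leaving out cKO 3 changed the direction of the group. The number of members with a negative fold change was 20 of 82 without cKO 3 and 78 without cKO 2. It was 70 without Control 2 and 68 without Control 3. The members' median log2 fold change ran from -0.36 to 0.068. By complex the median ran from -0.36 to 0.058 in complex I, -0.12 to 0.084 in complex II, -0.37 to 0.081 in complex III, -0.38 to 0.059 in complex IV and -0.34 to 0.089 in complex V. Among the 37 members named by rule, 30 of 478 alternative values changed sign. The lowest and highest values over the 4 fits that each left out 1 library were, for Ndufa4 -0.46 to 0.088, Ndufa4l2 -0.095 to 0.34, Ndufb8 -0.45 to 0.19, Sdha -0.11 to 0.096, Sdhb -0.24 to 0.066, Sdhc -0.17 to 0.10, Sdhd -0.073 to 0.16, Uqcr10 -0.63 to 0.091, Uqcrh -0.50 to 0.15, Uqcrq -0.62 to 0.039, Cox4i1 -0.38 to 0.14, Cox6a1 -0.32 to 0.00022. For the others they were Cox6b1 -0.37 to 0.14, Cox7a2 -0.49 to 0.068, Cox7a2l -0.00085 to 0.19, Cox7b -0.47 to 0.0014, Cox7c -0.43 to 0.0078, Cox8a -0.40 to 0.059, Atp5g2 -0.27 to 0.087, Atp5g3 -0.30 to 0.067, Atp5h -0.44 to 0.015, Atp5j -0.30 to 0.022, Atp5md -0.67 to 0.19, Atp5o -0.32 to 0.029. Sdha also changed sign with upper-quartile scaling (0.036), with a filter at a mean of 1 CPM (0.0036) and with protein-coding genes only (0.019), and Sdhc with upper-quartile scaling (0.015). The cause was not tested.

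No alternative called a member. Over all genes 8 were called, 58 with no filter on low counts, 185 with DESeq2 and between 0 and 2 when a library was left out, where 1 arm keeps 1 library that is assumed to vary like the other arm. Upper-quartile scaling moved the median of all genes by 0.04 and left 66 members negative. Complex II had a median of 0.025 under that scaling and 0.0082 with protein-coding genes only.

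With the replicate number as a block, 7 genes and 0 members were called, and 74 members were negative with a median of -0.12. The deviations of libraries with the same number had a correlation of 0.01, so the numbers were not taken to pair the libraries. Changes smaller than 2-fold were not simulated. Cox6a2 and Cox7a1 rest on few counts. The planned comparison of isoform protein sequences was not run.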
